A study of Homo sapiens with 24 samples.

Results

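The mRNAs of 10 SR splicing factors (SRSF1, SRSF2, SRSF3, SRSF4, SRSF5, SRSF6, SRSF7, SRSF9, SRSF10 and SRSF11) were followed in A2058 cells, an established human melanoma line named in every sample label (a passage of the study names another melanoma line). They were taken from the deposited table of raw counts by matching its Ensembl gene IDs to the GENCODE annotation of hg19. All 10 were among the 20345 genes of the table, all were annotated as protein-coding, and all 10 passed the filter on low counts in every comparison. The study asked how LSM14A, an RNA-binding protein of cytoplasmic mRNP granules, acts on mRNA translation when cells are exposed to hydroxyurea (HU), which blocks ribonucleotide reductase and so arrests replication forks. Cells received a scrambled control siRNA (siCTRL) or siRNA to LSM14A (siLSM14A) and were then left untreated (NT) or exposed for 2 h to HU at 10 mM. The 4 conditions (siCTRL NT, siCTRL HU, siLSM14A NT and siLSM14A HU) had 3 replicates each. A replicate had 1 library of total RNA from the input lysate and 1 of polysomal RNA pooled from the heavy gradient fractions. The 24 libraries are treated here as 12 cultures, pairing total and polysomal libraries of the same condition and replicate number. The labels do not state that such a pair came from 1 culture. All cells carried an siRNA, all came from 1 line, and both kinds of RNA were selected for poly(A) before sequencing.

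SR proteins bind exonic enhancers through their RNA recognition motifs and recruit the spliceosome through domains rich in arginine and serine. Several of them shuttle to the cytoplasm and also take part in mRNA export, surveillance and translation. Cells hold the amount of SR proteins steady through their own mRNAs: inclusion of an ultraconserved "poison" exon with an early stop codon sends the transcript to nonsense-mediated decay (NMD), and transcripts with retained introns stay in the nucleus. The annotation lists NMD and retained-intron transcripts for these genes. All 10 genes had at least 1 transcript annotated as an NMD target (100% against 39.6% of 19086 protein-coding genes), and 9 of 10 (90%) had 1 with a retained intron against 49.8% of protein-coding genes. SRSF5 had 8 retained-intron transcripts and SRSF6 had 0. The median number of transcripts was 11.5 for the SR genes and 6 for protein-coding genes, and the median GC content of their exons was 41.1% against 48.5%. On hg19, SRSF4 (ENSG00000116350, chr1:29474255-29508412, minus strand), SRSF10 (ENSG00000188529, chr1:24290837-24307417, minus) and SRSF11 (ENSG00000116754, chr1:70671365-70718735, plus) lie on chromosome 1. SRSF1 (ENSG00000136450, chr17:56078280-56084707, minus) and SRSF2 (ENSG00000161547, chr17:74730197-74733415, minus) lie on chromosome 17. The others are on chromosomes of their own: SRSF3 (ENSG00000112081, chr6:36562130-36573377, plus), SRSF5 (ENSG00000100650, chr14:70193617-70238722, plus), SRSF6 (ENSG00000124193, chr20:42086533-42094686, plus), SRSF7 (ENSG00000115875, chr2:38970741-38978636, minus) and SRSF9 (ENSG00000111786, chr12:120899475-120933749, minus).

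To show how an exon of an annotated NMD transcript can end the reading frame, the start of 1 is printed for each of 5 genes. In these genes an internal exon of an NMD transcript, lying within an intron of the canonical transcript, had an in-frame stop codon. The annotation also ends a coding sequence at that stop codon. Whether these exons are conserved or regulate their genes was not tested. Each line gives the last 20 bases of the preceding intron and then the exon up to that stop codon, 5′ to 3′ on the strand of the gene, from hg19. Capitals mark the stop codon. The SRSF3 exon has 456 bases in intron 3 of 5 and is printed from chr6:36567578-36567631. The SRSF7 exon has 449 bases in intron 3 of 7 (minus strand, printed from chr2:38976461-38976508). The SRSF6 exon has 268 bases in intron 2 of 5 (chr20:42087773-42087944), the SRSF11 exon 117 bases in intron 2 of 11 (chr1:70697522-70697591), and the SRSF9 exon 90 bases in intron 2 of 3 (minus strand, chr12:120902615-120902645).
SRSF3: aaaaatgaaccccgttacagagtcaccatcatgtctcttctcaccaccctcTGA
SRSF7: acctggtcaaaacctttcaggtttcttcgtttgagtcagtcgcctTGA
SRSF6: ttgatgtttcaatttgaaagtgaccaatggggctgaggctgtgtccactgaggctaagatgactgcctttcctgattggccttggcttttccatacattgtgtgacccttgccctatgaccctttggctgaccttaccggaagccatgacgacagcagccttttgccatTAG
SRSF11: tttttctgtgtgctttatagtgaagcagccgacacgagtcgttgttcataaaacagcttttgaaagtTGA
SRSF9: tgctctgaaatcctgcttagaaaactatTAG
The stop codon began at base 9 of the SRSF9 exon, base 26 of the SRSF7 exon, base 32 of the SRSF3 exon, base 48 of the SRSF11 exon and base 150 of the SRSF6 exon. The deposited counts sum all transcripts of a gene, so forms with and without these exons cannot be told apart in any value below, nor can nuclear and cytoplasmic copies.

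Libraries held 24789280 to 40645263 counts in total RNA and 28776634 to 44897501 in polysomal RNA, and the lowest count of any SR mRNA in any library was 557 (SRSF10). The cells had the transcripts of a melanoma line: in total RNA the medians were 672 CPM (the count scaled to a common library size) for SOX10, 872 for DCT, 398 for PMEL and 134 for MITF, with MLANA low at 8.89. The epithelial markers EPCAM and CDH1 and the blood markers PTPRC and CD3E stayed at or below 0.246 CPM, KRT5 had 0 counts in total RNA and KRT14 had 1.11 to 3.19 CPM. LSM14A itself stood at 81.6, 85.1 and 86.1 CPM in the total RNA of siCTRL NT cells and at 7.3, 8.31 and 6.95 CPM in siLSM14A NT cells, and at 80.9, 91 and 85.9 CPM against 6.6, 7.69 and 6.14 CPM with HU. The siLSM14A cultures thus kept some LSM14A mRNA (log2 change -3.49, SE 0.075, adjusted p = 1.905e-09 by edgeR's quasi-likelihood test in NT cells). Of the polysomal libraries, 4 leaned towards mRNAs of low GC content relative to the mean of their kind: siLSM14A NT 1, siCTRL NT 3, siLSM14A HU 3 and siLSM14A HU 1 (Spearman correlation over genes of -0.771, -0.709, -0.635 and -0.369), whereas the other 8 leaned the opposite way.

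In total RNA the SR mRNAs were abundant, between percentile 74.2 (SRSF10) and 97.1 (SRSF3) of all genes by CPM. Levels are given in CPM scaled by TMM (a scaling for the make-up of each library) and, to compare genes, in CPM per kb of the canonical transcript. SRSF3, which encodes a small shuttling SR protein and export adaptor, had the most reads, with 298 CPM at the lowest, 323 at the median and 349 at the highest of 12 libraries. SRSF5 followed at 181, 227 and 254 CPM, SRSF2 at 204, 220 and 270, SRSF1 at 203, 214 and 221, and SRSF7 at 176, 202 and 220. SRSF9 stood at 126, 147 and 165 CPM and SRSF6 at 118, 139 and 164. The lowest levels were those of SRSF11 (82.6, 90.1 and 99.8 CPM), SRSF4 (76.6, 87.2 and 98.4 CPM) and SRSF10 (57.4, 62.4 and 67.7 CPM). Per kb, the order differed: SRSF5 led with a median of 152 CPM per kb, then SRSF9 (128), SRSF2 (116), SRSF7 (85.9), SRSF3 (76.4), SRSF1 (40), SRSF4 (37.9), SRSF6 (31.9), SRSF11 (22.8) and SRSF10 (8.15). SRSF10, whose product represses splicing when dephosphorylated, was thus lowest on both scales. The order rests on the length used: per kb of all annotated exons, SRSF2 led at 73.9, followed by SRSF7 at 50, SRSF3 at 45.4 and SRSF5 at 42.3, and SRSF10 was again lowest at 5.26. Some counts are less certain for shared sequence: 32.7% of the exonic bases of SRSF1 and 13.4% of those of SRSF6 overlap another annotated gene of the same strand, and 43.6% of SRSF9 and 27.7% of SRSF2 overlap GATC and MFSD11 on the opposite strand. The libraries were stranded, but the strand setting of the counting was not given in the sources used here.

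**Figure D1:**
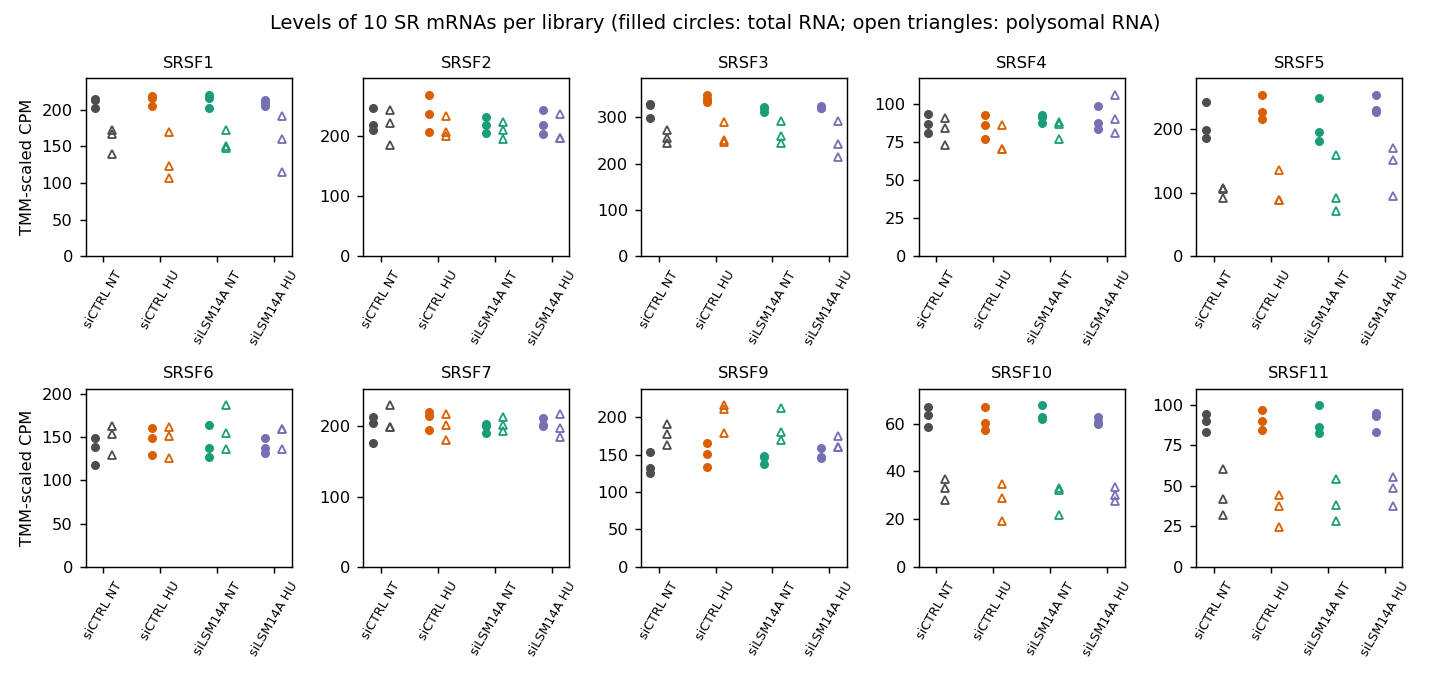
Level of each SR mRNA (TMM-scaled CPM, linear axis from 0) in the 24 libraries, with 1 panel per gene and the 4 conditions along the horizontal axis. Filled circles are total RNA and open triangles polysomal RNA of the 3 cultures of a condition. The triangles lie below the circles for SRSF1, SRSF3, SRSF5, SRSF10 and SRSF11 in each condition and mostly above them for SRSF9.

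Together the 10 mRNAs took 0.174% to 0.209% of the counts in total RNA (median 0.189%) and 0.106% to 0.153% in polysomal RNA (median 0.126%), so the ranges of the 12 total and 12 polysomal libraries did not overlap. These shares are of raw counts of bulk RNA, so they also depend on the make-up of each library, and amounts per cell are not seen. TMM factors were 1.098 to 1.138 in total RNA and 0.807 to 0.961 in polysomal RNA. With this scaling the 10 mRNAs summed to 1560 to 1860 CPM in total RNA and 1270 to 1620 CPM in polysomal RNA, so these ranges overlapped. The gap between both kinds of library then differed from gene to gene.

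The first question was which SR mRNAs were over- or under-represented in heavy polysomes. The ratio of polysomal to total RNA of a culture is called TE (translation efficiency) here, as a log2 ratio of scaled CPM: it is a relative measure, in which 0 is the scaling point and not equal occupancy, and ribosomes on light polysomes are not seen. Over all 4 conditions, 6 of the 10 mRNAs differed between polysomal and total RNA at an adjusted p under 0.05 (quasi-likelihood test of edgeR, adjusted by Benjamini-Hochberg), 5 lower and 1 higher. Such differences were common, with 84.4% of 12855 genes called, so the count of SR mRNAs called was not above that of genes at large. The median log2 ratio was -0.21 for the 10 mRNAs and -0.06 for all genes tested.

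SRSF11, SRSF10 and SRSF5 had the lowest ratios. SRSF11 encodes an SR-related protein that contacts the early spliceosome. Its log2 TE was -1.55, -0.98 and -0.58 in siCTRL NT, -1.38, -1.79 and -1.03 in siCTRL HU, -0.60, -1.60 and -1.40 in siLSM14A NT, and -0.94, -1.15 and -0.78 in siLSM14A HU. All 12 values lay below 0, and the 4 highest came from the 4 cultures whose polysomal libraries leaned to low GC, and without these 4 cultures the log2 ratio across conditions was -1.29. Across conditions the log2 ratio of SRSF11 was -1.11 (SE 0.111, 95% interval -1.34 to -0.88, adjusted p = 3.764e-09, edgeR), with 82.6 to 99.8 CPM in total RNA and 24.4 to 60.3 CPM in polysomal RNA.

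For SRSF10 the log2 TE was -1.27, -0.94 and -0.67 in siCTRL NT, -1.21, -1.58 and -0.80 in siCTRL HU, -0.95, -1.54 and -1.03 in siLSM14A NT, and -1.13, -0.98 and -0.91 in siLSM14A HU. The 3 cultures of siLSM14A HU were closest to each other, and the highest of the 12 was -0.67. The fitted log2 ratio was -1.07 (SE 0.0838, 95% interval -1.24 to -0.89, adjusted p = 6.683e-11, edgeR). SRSF5 is a close relative of SRSF4 and SRSF6 within the family. Its log2 TE was -1.19, -1.13 and -0.80 in siCTRL NT, -1.53, -1.36 and -0.665 in siCTRL HU, -0.19, -1.09 and -1.80 in siLSM14A NT, and -0.75, -1.26 and -0.44 in siLSM14A HU. SRSF5 was the most variable of the 10, with a range of 1.61 over the 12 cultures and the highest and lowest of its values both in siLSM14A NT. The highest of these, replicate 1, came from a polysomal library that leaned to low GC, and the lowest, replicate 3, came with the total RNA library that leaned most to low GC (Spearman -0.547). Both values, and so the range, also rest on pairing total with polysomal libraries by replicate number. Over all genes, the deviations of paired libraries from their group means correlated at -0.308 in replicate 1 and -0.231 in replicate 3. The fitted log2 ratio of SRSF5 was -0.98 (SE 0.117, adjusted p = 5.669e-08, edgeR).

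SRSF1 and SRSF3 were lower in polysomal RNA by a smaller amount. SRSF1, the prototype of the family, acts in splicing, NMD and translation. Its log2 TE was -0.61, -0.35 and -0.24 in siCTRL NT, -0.83, -1.01 and -0.28 in siCTRL HU, -0.33, -0.55 and -0.45 in siLSM14A NT, and -0.42, -0.83 and -0.13 in siLSM14A HU. All lay below 0, and total RNA (203 to 221 CPM) and polysomal RNA (107 to 192 CPM) did not overlap. For SRSF3 the 12 cultures ranged from -0.57 to -0.13 with a median of -0.34, and total RNA (298 to 349 CPM) and polysomal RNA (215 to 293 CPM) again did not overlap. The fitted log2 ratios were -0.49 for SRSF1 (SE 0.0748, adjusted p = 2.712e-06, edgeR) and -0.33 for SRSF3 (SE 0.0501, adjusted p = 2.511e-06, edgeR).

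SRSF9, a short relative of SRSF1, was the SR mRNA called higher in polysomal RNA. Its log2 TE was 0.61, 0.21 and 0.30 in siCTRL NT, 0.49, 0.39 and 0.41 in siCTRL HU, 0.20, 0.53 and 0.38 in siLSM14A NT, and 0.0049, 0.25 and 0.13 in siLSM14A HU. All 12 lay above 0, although the ranges of total RNA (126 to 165 CPM) and polysomal RNA (160 to 216 CPM) overlapped. The fitted log2 ratio was 0.33 (SE 0.0535, 95% interval 0.22 to 0.44, adjusted p = 6.546e-06, edgeR). The other 4 were not called. SRSF6 had a log2 ratio of 0.10 (95% interval -0.04 to 0.24), SRSF7, a zinc-knuckle SR protein and export adaptor, 0.0037 (-0.10 to 0.10), SRSF4 -0.08 (-0.20 to 0.04), and SRSF2, a nuclear speckle protein that does not shuttle in most cells, -0.09 (-0.21 to 0.03). The cultures of SRSF6 split most in siLSM14A NT (0.56, 0.17 and -0.28), where the first of them leaned to low GC, and lay together in siCTRL NT (0.13, 0.14 and 0.13). As for SRSF5, the first and last siLSM14A NT values rest on pairs of libraries whose deviations correlated at -0.308 and -0.231. SRSF7 was the steadiest, with a range of 0.30 in log2 TE over the cultures, between -0.12 and 0.18.

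**Figure D2:**
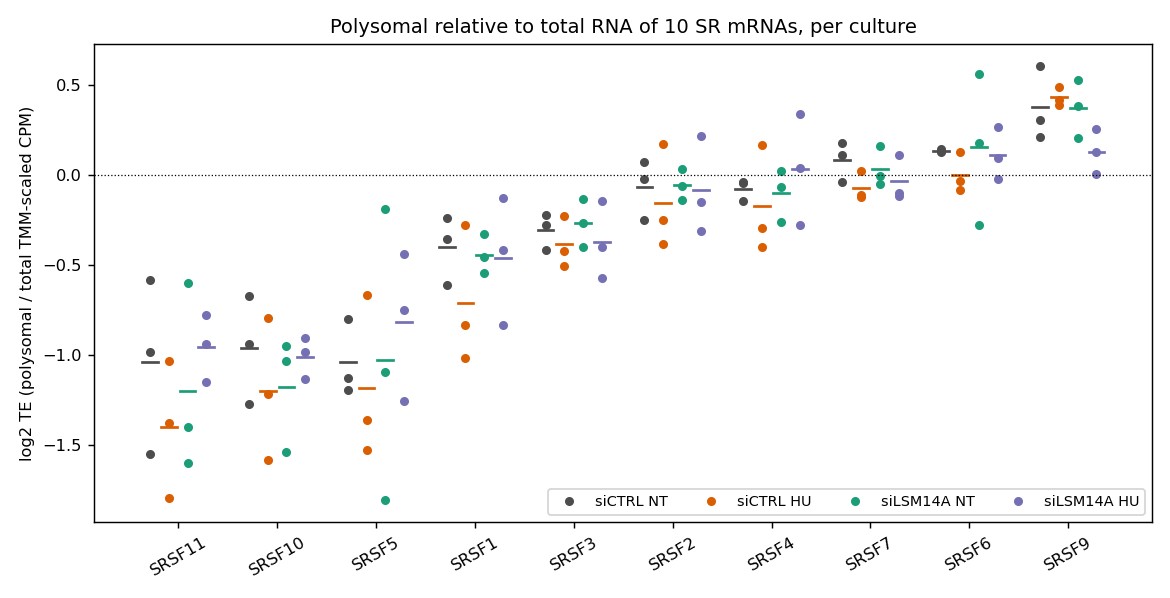
Log2 TE (polysomal over total RNA, TMM-scaled CPM) of each SR mRNA in the 12 cultures, ordered by the mean. Each point is 1 culture, coloured by condition, and short lines are the means of the 3 cultures. SRSF11, SRSF10 and SRSF5 lie lowest and furthest apart, with SRSF5 between -1.80 and -0.19, whereas SRSF9 lies above 0 in all 12 cultures.

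The order itself was set by the means of these 12 cultures, so the steps between neighbours are given as a description, with no test. SRSF11, SRSF10 and SRSF5 followed each other at 0.06 ± 0.21 and 0.07 ± 0.42 (mean difference in log2 TE within cultures ± SD, n = 12), less than the spread. The largest step was from SRSF5 to SRSF1 (0.51 ± 0.35, in 11 of 12 cultures), followed by that from SRSF3 to SRSF2 (0.24 ± 0.20, also in 11 of 12). The steps from SRSF6 to SRSF9 (0.23 ± 0.31) and from SRSF1 to SRSF3 (0.17 ± 0.23) were smaller than their SD, each seen in 9 of 12 cultures. SRSF2, SRSF4, SRSF7 and SRSF6 lay within steps of at most 0.10, below their spread.

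Most of these calls were also made within single conditions, with 3 libraries a side. In siCTRL NT, 6 of 10 were called, 1 higher and 5 lower, where 63.8% of all genes were called. In siCTRL HU the count was again 6, 1 higher and 5 lower, against 73.5% of all genes. In siLSM14A NT, 5 were called, 1 higher and 4 lower, against 64.4%, and SRSF3 missed the threshold there (log2 ratio -0.24, adjusted p = 0.0675, edgeR). In siLSM14A HU, 5 were called, all lower, against 66.8%, and SRSF9 was the one not called (log2 ratio 0.13, 95% interval -0.06 to 0.32, adjusted p = 0.207, edgeR). Leaving out 1 culture reduced the count to 2 in siCTRL NT (without replicate 2) and to 3 there without replicate 1, to 2 in siLSM14A NT without replicate 2 or 3, and in siLSM14A HU to 2 without replicate 1 and 3 without replicate 2. In siCTRL HU it ran from 4 without replicate 1, where SRSF1 and SRSF9 were not called, to 8 without replicate 3, where SRSF2 (-0.30) and SRSF4 (-0.33) were also called lower.

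The GC content of exons moved with the ratio across the transcriptome. Over 12855 genes, the log2 ratio of polysomal to total RNA had a Spearman correlation of 0.67 with exonic GC content, as a description of genes that share the same libraries. Genes of up to 40% GC had a median log2 ratio of -0.80 and genes above 55% one of 0.69. SR mRNAs are poor in GC, with SRSF10 at 36.97%, SRSF11 at 37.2%, SRSF1 at 39.1%, SRSF3 at 40.03%, SRSF6 at 40.8%, SRSF4 at 41.3%, SRSF7 at 41.4%, SRSF5 at 45.2%, SRSF9 at 45.5% and SRSF2 at 46.5%. Between 40% and 45% GC the median of all genes was -0.53, below the values of SRSF3, SRSF4, SRSF6 and SRSF7. Between 45% and 50% it was -0.17, with SRSF5 (-0.98) far below it and SRSF9 (0.33) above it.

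**Figure D3:**
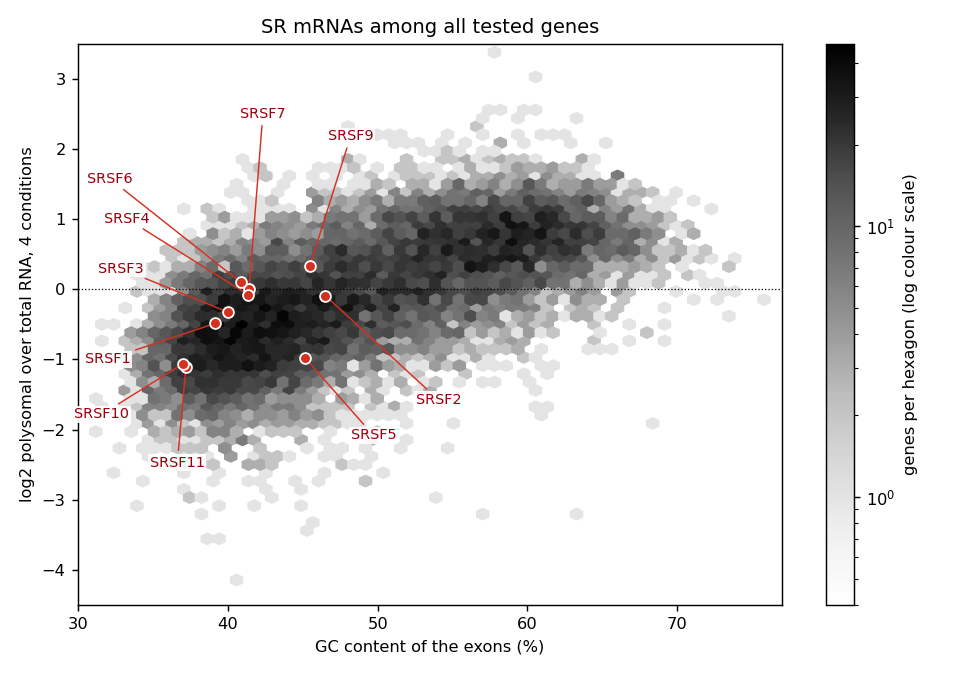
Log2 ratio of polysomal to total RNA over all 4 conditions against the GC content of the exons (%), for all 12855 genes tested. Grey hexagons show the number of genes on a log colour scale and red points the 10 SR mRNAs. The ratio climbs with GC content, and SRSF5 lies well below SRSF9 at nearly the same GC content.

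With a correction of each library for exonic GC content, the pattern of calls changed. Across conditions 8 of 10 were then called, 5 higher and 3 lower, where 79.3% of all genes were called. SRSF5 (log2 ratio -0.81), SRSF11 (-0.44) and SRSF10 (-0.35) stayed lower and SRSF9 stayed higher (0.49). Within conditions SRSF10 was then called only in siLSM14A HU (-0.38), with -0.21 in siCTRL NT (adjusted p = 0.1205, edgeR), -0.30 in siCTRL HU (0.1121) and -0.39 in siLSM14A NT (0.06003). SRSF3 turned from -0.33 to 0.18, SRSF1 from -0.49 to 0.07 and was no longer called, and SRSF4 (0.35), SRSF6 (0.57) and SRSF7 (0.44) were now called higher. SRSF2 was called in neither (-0.09 and -0.03). The correction also moved the median of all genes from -0.06 to -0.16. The direction for SRSF1, SRSF3 and SRSF4 therefore depended on this choice. So did the order, with SRSF2 below SRSF1 and SRSF3, and SRSF6 above SRSF9. Without the 4 cultures that leaned to low GC, and with no correction, the count stayed at 6 and the same 6 were called: SRSF11 (-1.29), SRSF5 (-1.23), SRSF10 (-1.10), SRSF1 (-0.60), SRSF3 (-0.38) and SRSF9 (0.41).

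**Figure D4:**
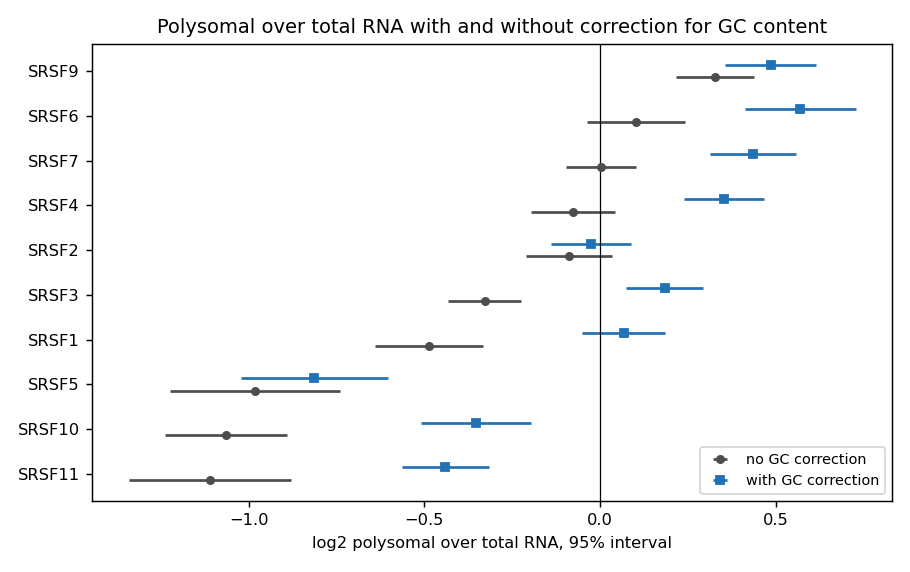
Log2 ratio of polysomal to total RNA over all conditions, with 95% intervals, without (grey circles) and with (blue squares) correction for exonic GC content. SRSF5, SRSF10 and SRSF11 lie below 0 and SRSF9 above 0 either way, whereas SRSF1, SRSF3 and SRSF4 cross 0.

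The second question was whether knockdown of LSM14A, HU or both altered the SR mRNAs. No SR mRNA was called in any of 15 comparisons, which are the 4 pairs of conditions and the interaction of HU and siRNA, each in total RNA, polysomal RNA and TE (edgeR's quasi-likelihood test, adjusted p under 0.05). None of the 150 values reached an unadjusted p under 0.05 either, and DESeq2 also called 0. The labels name replicates only by number, so these p-values measure the spread between samples, which may be technical. Comparisons that share a condition share its libraries.

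In total RNA, siLSM14A against siCTRL left all 10 within a narrow band. In NT cells 0 of 10 were called, where 0.566% of 12544 genes were (10.8% at an unadjusted p under 0.05), and log2 changes ran from -0.05 to 0.08. In HU cells 0 of 10 were called, where 0.802% of 12475 genes were (8.54% unadjusted), and changes ran from -0.10 to 0.07. For HU against NT, 0 of 10 were called in siCTRL cells, where 0% of genes were (1.44% unadjusted), and 0 of 10 in siLSM14A cells, also against 0% (5.2% unadjusted). The interaction gave 0 of 10 against 0% (2.9% unadjusted). The smallest unadjusted p was that of SRSF3 in siLSM14A HU against siCTRL HU (log2 change -0.09, SE 0.0478, 95% interval -0.20 to 0.01, adjusted p = 0.638, edgeR). Its total RNA stood at 340, 349 and 334 CPM in siCTRL HU and at 320, 320 and 324 CPM in siLSM14A HU. These groups of 3 did not overlap, whereas siCTRL NT (329, 326 and 298 CPM) spanned the values of siLSM14A HU.

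The highest bound of any interval in total RNA was that of SRSF5 in HU against NT of siLSM14A cells (log2 change 0.18, 95% interval -0.03 to 0.39), with 181, 195 and 249 CPM in NT and 254, 227 and 230 CPM in HU, which overlapped. Across the 40 pairwise values in total RNA the 95% intervals lay between -0.29 and 0.39. A change of total RNA beyond these bounds thus lay outside all 40 intervals.

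In polysomal RNA the cultures spread more. For siLSM14A against siCTRL, 0 of 10 were called in NT cells, where 0.0162% of 12342 genes were (1.96% unadjusted), and 0 of 10 in HU cells, where 0.0653% of 12256 were (4.99% unadjusted). For HU against NT, 0 of 10 were called in siCTRL cells (0% of genes, 2.1% unadjusted) and 0 of 10 in siLSM14A cells (0% of genes, 0.871% unadjusted), and the interaction gave 0 of 10 (0% of genes, 1.07% unadjusted). The smallest p was that of SRSF9 in siLSM14A HU against siCTRL HU (log2 change -0.29, SE 0.136, 95% interval -0.59 to 0.0054, adjusted p = 0.739, edgeR). SRSF9 stood at 211, 216 and 179 CPM in the polysomal RNA of siCTRL HU and at 160, 175 and 160 CPM in siLSM14A HU, and these groups did not overlap.

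In the same comparison SRSF11 (0.43, 95% interval -0.05 to 0.91), SRSF5 (0.42, -0.07 to 0.92) and SRSF4 (0.29, -0.04 to 0.63) had the largest values above 0. SRSF5 stood at 88.4, 88.1 and 136 CPM in siCTRL HU and at 151, 95.2 and 170 CPM in siLSM14A HU. SRSF11 stood at 37.4, 24.4 and 44.1 CPM against 48.7, 37.5 and 55.5 CPM. For both genes the groups overlapped, and replicates 1 and 3 of siLSM14A HU, the higher ones, were libraries that leaned to low GC. Over the 12256 genes tested, the log2 change in this comparison had a Spearman correlation of -0.629 with GC content. With the GC correction SRSF11 had a log2 change of 0.20 (95% interval -0.14 to 0.53), SRSF4 one of 0.13 (-0.11 to 0.38) and SRSF5 one of 0.34 (-0.12 to 0.79). The 40 pairwise intervals in polysomal RNA lay between -0.88 (SRSF11) and 1.04 (SRSF5), and their median SE of 0.161 compared with 0.0697 in total RNA, so smaller changes could be detected in total RNA. In the interaction, SRSF11 had the largest value in polysomal RNA (0.61, 95% interval -0.26 to 1.47) and SRSF9 the lowest (-0.34, -0.74 to 0.05).

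**Figure D5:**
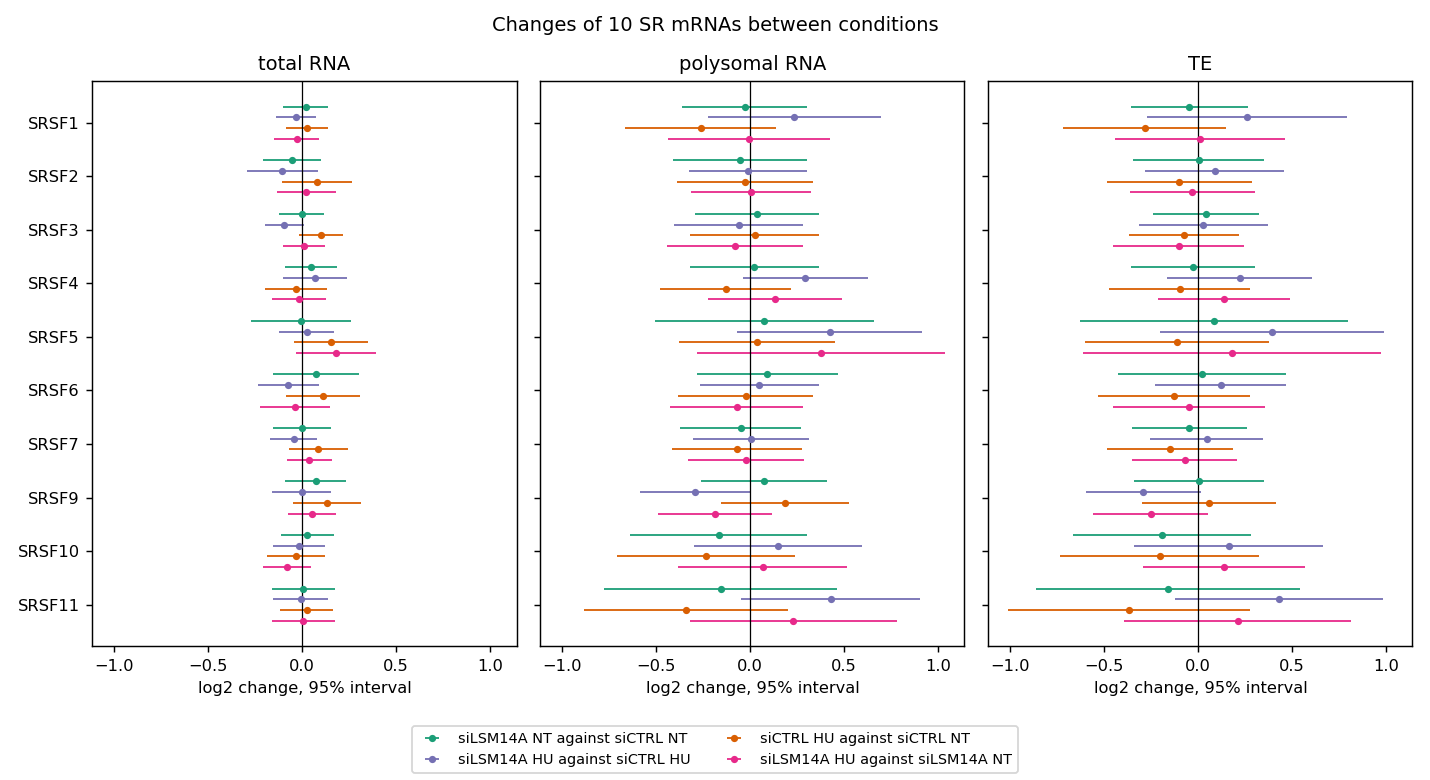
Log2 change of each SR mRNA in 4 pairs of conditions (colours), with 95% intervals, in total RNA (left), polysomal RNA (middle) and TE (right). Intervals are narrowest in total RNA, where the points lie between -0.10 and 0.18, and widest for SRSF5 and SRSF11 in polysomal RNA and TE.

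TE was tested as the difference between the polysomal and the total change. For siLSM14A against siCTRL, 0 of 10 were called in NT cells (0% of 12757 genes, 0.87% unadjusted) and 0 of 10 in HU cells (0% of 12649 genes, 3.85% unadjusted). For HU against NT, 0 of 10 were called in siCTRL cells (0% of genes, 2.31% unadjusted) and 0 of 10 in siLSM14A cells (0% of genes, 1.41% unadjusted), and the interaction gave 0 of 10 (0% of genes, 1.9% unadjusted). In siLSM14A HU against siCTRL HU, 9 of 10 values lay above 0, with a median of 0.14 against 0.008 for all genes. SRSF9 was the exception: its log2 change in TE was -0.29 (SE 0.144, 95% interval -0.60 to 0.02, adjusted p = 0.778, edgeR). In this comparison the medians of the related gene lists counted below also lay above 0. They were 0.15 for SR-related genes, 0.26 for SR kinases and transport factors, 0.16 for hnRNPs and 0.0555 for NMD and exon junction genes. In siCTRL HU against siCTRL NT, 9 of 10 lay below 0, with a median of -0.12 against -0.0067 for all genes, and SRSF9 was again the exception at 0.06. Both comparisons use the siCTRL HU libraries. In both, the change in TE of all genes went with GC content (Spearman -0.644 and 0.55), and with the GC correction the medians of the 10 mRNAs were -0.02 and -0.03. In siLSM14A HU against siCTRL HU, that correction brought SRSF9 (-0.36) and SRSF3 (-0.26) to an unadjusted p under 0.05 in polysomal RNA and SRSF9 (-0.34) in TE, none of them past the adjusted threshold. The 40 intervals for TE lay between -1.01 and 0.99.

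The mRNAs of the machinery around SR proteins were counted in the same fits. Across all conditions, polysomal RNA differed from total RNA for 18 of 21 SR-related genes tested (6 higher, 12 lower, median -0.35). U2AF2 (1.11) and SNRNP70 (0.97), which encode spliceosomal partners of SR proteins at the splice sites, were higher, and RSRC1 (-1.35) and SREK1 (-1.73), SR-related splicing regulators, lower. All 11 genes tested for SR kinases and transport factors were called (4 higher, 7 lower, median -0.50). Of the CLK kinases, which phosphorylate SR proteins in the nucleus, CLK3 was higher (0.82) and CLK1 (-1.20) and CLK4 (-1.46) were lower, and NXT1, a partner of the mRNA export receptor, was higher (0.54). Of 27 hnRNP genes, which often oppose SR proteins, 12 were higher and 11 lower (median -0.02), with RALY at 1.08, HNRNPL at 0.84, PTBP3 at -0.92 and PTBP2 at -1.07. All 14 NMD and exon junction complex genes tested were called, 7 higher and 7 lower (median -0.16), with the NMD helicase UPF1 at 1.79, the exon junction factor EIF4A3 at 0.86 and the NMD kinase SMG1 at -1.10. Against the 84.4% of all genes called, these shares are no finding about the lists. With the GC correction NXT1 turned to -0.06, and NXT1, SNRNP70 (0.10) and PTBP2 (-0.18) were no longer called.

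Between conditions, 1 gene of these 4 lists was called in any of the 15 comparisons, in total RNA of siLSM14A HU against siCTRL HU. There, 0.802% of 12475 genes were called. It was 1 of 11 SR kinases and transport factors tested, with 0 of 21 SR-related, 0 of 27 hnRNP and 0 of 14 NMD and exon junction genes. A single call is no finding about the lists. SRPK1, a kinase that phosphorylates SR proteins in the cytoplasm and lets them enter the nucleus, stood at 115, 119 and 118 CPM in the total RNA of siCTRL HU and at 87.6, 89.1 and 96.2 CPM in siLSM14A HU, so the groups did not overlap. Its log2 change was -0.38 (SE 0.0554, adjusted p = 0.00491, edgeR). In NT cells it stood at 116, 111 and 120 CPM in siCTRL and at 91.4, 97.1 and 102 CPM in siLSM14A, which did not overlap but was not called. The call in HU cells kept its side of the threshold without any 1 culture, and it was lost when all 24 libraries were fitted together (log2 change -0.37, adjusted p = 0.825, edgeR).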

How the data were processed

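The authors trimmed stranded poly(A)-selected reads with Trim Galore, aligned them to hg19 with STAR 2.6.1a and counted reads per gene, and deposited raw counts without normalization. Genes were matched by Ensembl ID to GENCODE v44lift37 on hg19, a later release than the one named in the methods. Of 20345 IDs, 19637 matched, 19086 of them protein-coding, and these were tested. The 10 members and the 4 other gene lists were chosen with earlier results of these data known. All members are named, with up to 2 genes of smallest p per direction from each other list; 1 gene that this rule would name is not reported here. Counts were fitted in R 4.3.3 with edgeR 4.0.16 (TMM, filterByExpr at minimum counts of 10 and 15, quasi-likelihood test, Benjamini-Hochberg over all genes tested). Changes in TE were the interaction of fraction and condition. Xtail, the tool of the study, was not used. Scripts were tested on simulated data. The GC correction used loess offsets (span 0.3). DESeq2 1.42.0 was an alternative. The methods name the input samples as the source of total RNA, but the labels link total and polysomal libraries only by replicate number. The log2 TE of a culture sets libraries of the same condition and number against each other, so it rests on this pairing. Their deviations from the group means correlated at -0.308, 0.115 and -0.231 in siLSM14A NT. In the other conditions the correlations lay between 0.058 and 0.238. Between conditions, deviations of same-numbered cultures correlated above 0.1 in all 3 pairs in these cases: siCTRL HU with siCTRL NT in total (0.27, 0.25, 0.19) and polysomal RNA (0.25, 0.18, 0.45), and siLSM14A HU with siCTRL HU in total RNA (0.33, 0.18, 0.25). In polysomal RNA the latter gave 0.045, 0.281 and 0.4. Values for siLSM14A NT with siCTRL NT were -0.247, 0.263 and -0.221 in total and -0.395, 0.231 and -0.347 in polysomal RNA. Those for siLSM14A HU with siLSM14A NT were -0.125, 0.212 and -0.026 in total and 0.285, 0.179 and -0.219 in polysomal RNA. The main fits used no block for replicate or culture, so their p-values and intervals are unpaired. Blocks entered only as alternatives. PECAM1, a planned marker, was not analysed here.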

Additional observations from a re-analysis of the deposited data

How the results depend on the processing

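In 247 alternative fits of the 15 comparisons between conditions, 0 SR mRNAs were called. Of 2470 values, 247 changed sign, all without a call on either side. With the replicate block the count was 0 in each comparison, and with the culture as a replicate block the counts of polysomal against total RNA stayed at 6, 6, 5, 5 and 6. Leaving out each culture moved the counts of SR mRNAs called in polysomal against total RNA to between 2 and 6 in siCTRL NT, 4 and 8 in siCTRL HU, 2 and 5 in siLSM14A NT, and 2 and 5 in siLSM14A HU. Over all conditions the count was also 6 without the 4 cultures leaning to low GC, an alternative chosen after seeing the data.

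Of its 50 values of polysomal against total RNA, the GC correction turned the direction of 16 that were called with or without it. No other alternative did so for a called value. SRSF2 also turned, with no call on either side, in siLSM14A NT (-0.03 to 0.04) and siLSM14A HU (-0.08 to 0.02). For SRSF1 it gave log2 ratios of 0.0682 over all conditions, 0.18 in siCTRL NT, 0.0182 in siCTRL HU, 0.15 in siLSM14A NT and 0.039 in siLSM14A HU. For SRSF3 it gave 0.18, 0.23, 0.27, 0.27 and 0.0827 in that order. For SRSF4 it gave 0.35 over all conditions, 0.36 in siCTRL NT, 0.38 in siCTRL HU and 0.35 in siLSM14A NT. For SRSF7 it gave 0.49 in siCTRL HU and 0.36 in siLSM14A HU. NXT1 turned to -0.0603 and was no longer called. Of 640 values over all alternatives, 27 lost and 16 gained a call with the direction unchanged. Of these, 21 and 4 came on leaving out a culture and 3 and 10 with the GC correction (SRSF10 lost in siCTRL NT, siCTRL HU and siLSM14A NT). The values that turned are counted apart: those of SRSF1 lost a call and those of SRSF4 and SRSF7 gained one. For SRSF3 a call was lost in siCTRL NT and siLSM14A HU, gained in siLSM14A NT and kept with the other sign elsewhere. The cause was not tested. Groups of 3 and the spread of polysomal libraries limit what could be detected.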
